A study of Mus musculus with 4 samples.

Results

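The 33 genes described here encode the autophagy machinery, its cargo receptors and the mTORC1 kinase that restrains it. They were picked by function from a fixed list of symbols, with earlier results of these data known. All 33 were found by symbol among the 55536 annotated genes of the count tables. The measurements are polyA-selected RNA-seq of bone-marrow-derived macrophages, cells grown in culture from marrow, of C57BL/6J mice. All 4 libraries, replicates 1 to 4, belong to 1 group: macrophages given 100 ng/ml lipid A, the membrane anchor of bacterial lipopolysaccharide, during 12 h, washed free of it for another 12 h, and harvested at 0 min of restimulation with the same agent. Other label fields call the agent lipoprotein A. Age and sex were not collected. Untreated macrophages were not analysed here, so the values describe levels after the pretreatment and not its effect. The replicates are separate biosamples with the same donor identifier, so p-values measure the spread between these libraries only, which may be technical.

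Autophagy encloses cytoplasm in a double membrane that fuses with the lysosome. The ULK kinase complex starts the process, a class III PI3-kinase marks the membrane with PI3P, and a ubiquitin-like conjugation system attaches LC3 and GABARAP proteins to the lipid phosphatidylethanolamine. Cargo receptors such as p62 link ubiquitinated material to lipid-bound LC3, and in macrophages this route is known for clearing damaged mitochondria and intracellular bacteria.

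The coding ends of Map1lc3a, Gabarap, Gabarapl1 and Gabarapl2 are shown because they carry the step common to these proteins, the cut by an ATG4 protease behind a glycine. The last 39 coding bases of each main coding transcript are given from GENCODE M21 on GRCm38, with the codon of that glycine in capitals.
Map1lc3a, chr2:155277599-155277637, plus strand: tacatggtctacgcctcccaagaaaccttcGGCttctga
Gabarap, chr11:69994486-69994524, plus strand: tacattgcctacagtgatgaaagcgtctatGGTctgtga
Gabarapl1, chr6:129541129-129541167, plus strand: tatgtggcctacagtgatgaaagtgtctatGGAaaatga
Gabarapl2, chr8:111952367-111952405, plus strand: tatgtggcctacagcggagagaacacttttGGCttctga
Each of the 4 has 1 codon between the glycine codon and the stop codon. Across whole coding sequences, Gabarap and Gabarapl1 were 74.9% identical, and Gabarapl2 was 63.1% identical to Gabarap and 64.5% to Gabarapl1. The longest identical stretch in the alignments of these 4 coding sequences was 17 bases, between Gabarap and Gabarapl1. Copies elsewhere in the genome were not examined.

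Promoters are shown for the searched members that hold CACGTG, the palindromic core of the CLEAR element. TFEB, a transcription factor of lysosome and autophagy genes, binds this element. RefSeq promoters (GRCm38.p6, 250 bases before to 50 after the annotated start) of 26 of the 33 members were searched, 27 promoters in all. This is the set searched and not a count of the members that have a RefSeq promoter. Motif matches in the other members are not reported here. CACGTG was present in 4 of the 27, those of Atg3, Atg5, Atg7 and Atg14, and in 7.15% of all 32851 promoters. The motif is in capitals in these 60-base stretches.
Atg3, chr16:45158714-45158773, plus strand: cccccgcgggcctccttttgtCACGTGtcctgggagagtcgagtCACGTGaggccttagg
Atg5, chr10:44268279-44268338, plus strand: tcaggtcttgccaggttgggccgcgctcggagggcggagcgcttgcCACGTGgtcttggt
Atg7, chr6:114670920-114670979, plus strand: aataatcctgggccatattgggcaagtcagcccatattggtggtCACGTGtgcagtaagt
Atg14, chr14:47568430-47568489, minus strand: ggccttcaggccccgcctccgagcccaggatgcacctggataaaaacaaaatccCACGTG
The promoter of Atg3 held the motif at 2 places, the first bases of which lie 94 and 71 bases before the start. The stretches of Atg7 and Atg14 lie inside the GENCODE bounds of these genes, chr6:114643097-114860614 and chr14:47540893-47570649. Their RefSeq starts are thus internal to the genes whose levels are given below, and which start the RNA came from was not examined. TGANNNNGC, the core of the antioxidant response element searched on both strands, was in 13 of the 27 promoters and in 41.3% of all. The full CLEAR palindrome, the AP-1 motif TGACTCA and the kappa B consensus were in 0 of the 27, against 0.326%, 5.20% and 0.155% of all promoters, with both strands searched for the last 2. A match is a description of the letters in this window and no measure of binding.

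Expected counts over annotated genes totalled 48875472 and 57126810 in replicates 3 and 4, against 25594340 and 27384162 in replicates 1 and 2. Per the deposited notes, 4 read files lie behind each of replicates 3 and 4 and 6 behind each of replicates 1 and 2; what this reflects is not known. The mitochondrial share of counts was 3.34% and 3.00% in replicates 3 and 4, against 0.778% and 1.16% in replicates 1 and 2. The rRNA gene CT010467.1 took 0.313% and 0.349% of TPM in replicates 3 and 4, against 8.49% and 1.01% in replicates 1 and 2, so that replicate 1 stood apart. Other rRNA genes were not counted in this share. The mean fragment length in the kallisto-layout tables was 222.1 and 231.7 nt in replicates 3 and 4, against 259.1 and 261.6 nt in replicates 1 and 2. The 6 macrophage markers summed to between 14100 and 16900 TPM (a level corrected for transcript length and scaled within a library), and the B cell, T cell and fibroblast markers to less than 1 TPM each in every library. The neutrophil list summed to 21.1 and 2.46 TPM in replicates 3 and 4, against 35.6 and 4.67 TPM in replicates 1 and 2, nearly all of it S100a8.

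Every member was expressed in every library, at 1 TPM or more, and the set spanned 3.74 to 1280 TPM. A cargo receptor and a GABARAP gene led it: Sqstm1 averaged 868 ± 366 TPM and Gabarap 794 ± 104 TPM (SD, n = 4), together 65.4% of the members' summed TPM. Another 25 members had means between 10 and 100 TPM, and 6 lay below 10 TPM. The median member had a mean of 19.1 TPM, beside 11.2 TPM for the median of all 13264 genes tested below. The members' summed TPM was 2399 and 2937 in replicates 3 and 4, against 1907 and 2917 in replicates 1 and 2. In these bulk libraries fewer cells expressing a gene and less RNA per cell cannot be told apart.

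**Figure D1:**
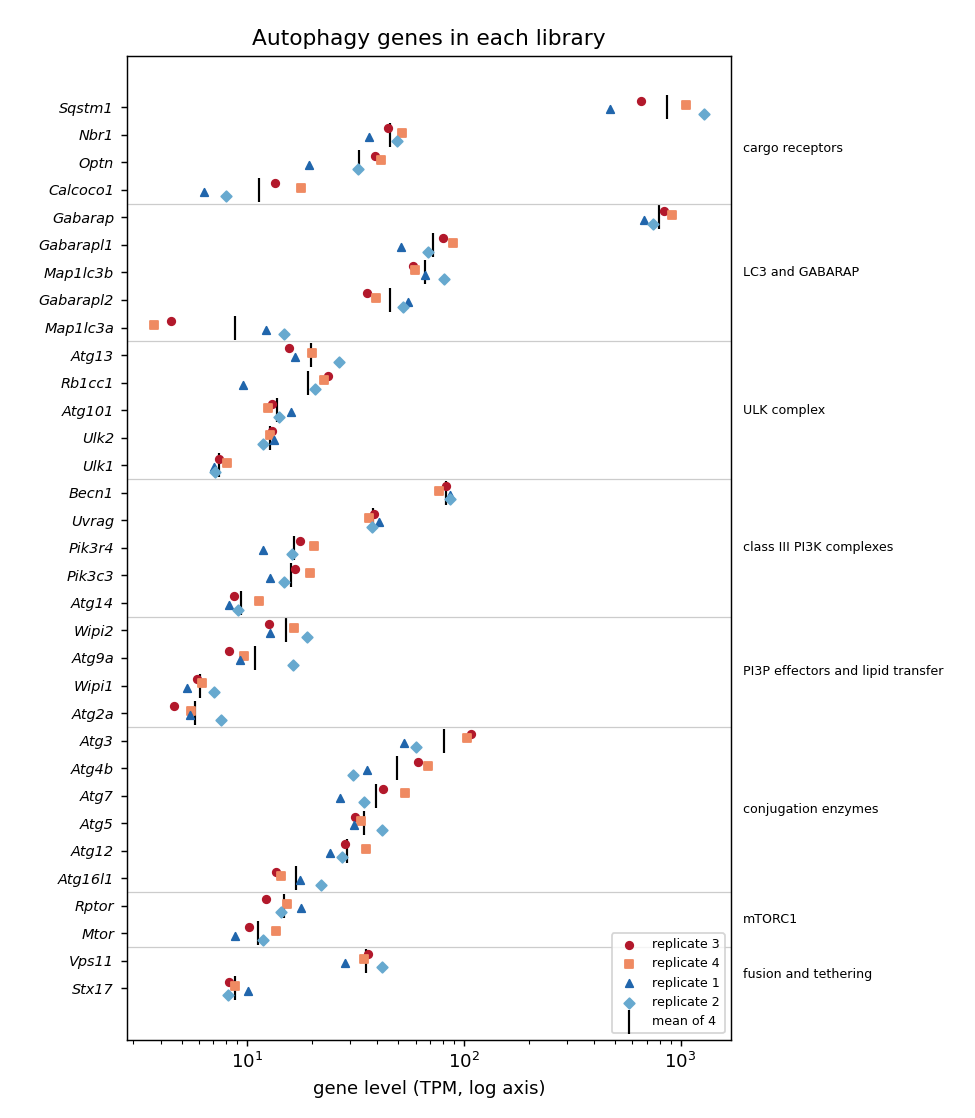
TPM of each of the 33 genes in replicates 3, 4, 1 and 2 (points, log axis), with the mean of the 4 libraries as a vertical bar, grouped by role and ordered by mean within a role. Sqstm1 and Gabarap stand apart on the right, and Map1lc3a has the widest relative range, from 3.74 to 14.9 TPM.

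Ordered by mean TPM, the members formed a nearly continuous series in which most neighbours did not differ beyond their spread. Of 32 neighbouring pairs, 4 kept their order in all 4 libraries: Gabarap above Becn1, Atg12 above Atg13, Stx17 above Ulk1, and Ulk1 above Wipi1. Sqstm1 and Gabarap exchanged places between libraries, each leading in 2 of the 4.

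The libraries were compared by setting replicates 3 and 4 over replicates 1 and 2, the split given by the number of read files. It asks how far libraries of a single condition differ for these genes. edgeR's quasi-likelihood test called 729 of 13264 genes at an adjusted p below 0.05, which is 5.50% (250 higher, or 1.88%, and 479 lower, or 3.61%, in replicates 3 and 4), and 3638 genes had an unadjusted p below 0.05. Among the 33 members 4 were called: Atg3 and Calcoco1 were higher in replicates 3 and 4, and Map1lc3a and Gabarapl2 were lower. Unadjusted p-values were below 0.05 for 9 members. Whether the members' share differs from that of all genes was not tested.

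The members as a set were centred on no difference. Their median log2 fold change was 0.03, beside -0.02 over all genes tested, with 17 members positive and 16 negative. The median size of the change was 0.29 on the log2 scale, beside 0.38 over all genes. Normalised CPM (counts scaled to library size after TMM correction) did not overlap between the pairs of libraries for 20 of 33 members (13 higher, 7 lower), a share close to the 58.1% of all genes (28.5% higher, 29.6% lower). Below, overlap of a gene's levels refers to TPM unless normalised CPM is named. The SD of log2 CPM over the 4 libraries had a median of 0.23 over members and 0.34 over all genes, and 27 members lay below the median of all genes. The members' median level was above that of all genes, and neither the SD nor the size of the change was compared at matched level. Whether the members vary less than other genes of their level was therefore not tested.

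Most of these calls were lost when a library was left out, while the fold changes kept their direction and most of their size. They spanned 0.88 to 0.99 for Atg3, 0.81 to 1.06 for Calcoco1, -1.03 to -0.72 for Gabarapl2 and -1.85 to -1.52 for Map1lc3a. Leaving out replicate 1, 3 or 4 left 0 members called by edgeR, and 243, 86 or 51 of all genes. Leaving out replicate 2 left Map1lc3a and Gabarapl2, and 640 of all genes. With offsets for GC content and transcript length Calcoco1 alone was called, and all genes then split into 194 higher and 184 lower. Depth, fragment length and the mitochondrial share differ in the same way as the pairs of libraries, and their part in these differences was not tested.

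**Figure D2:**
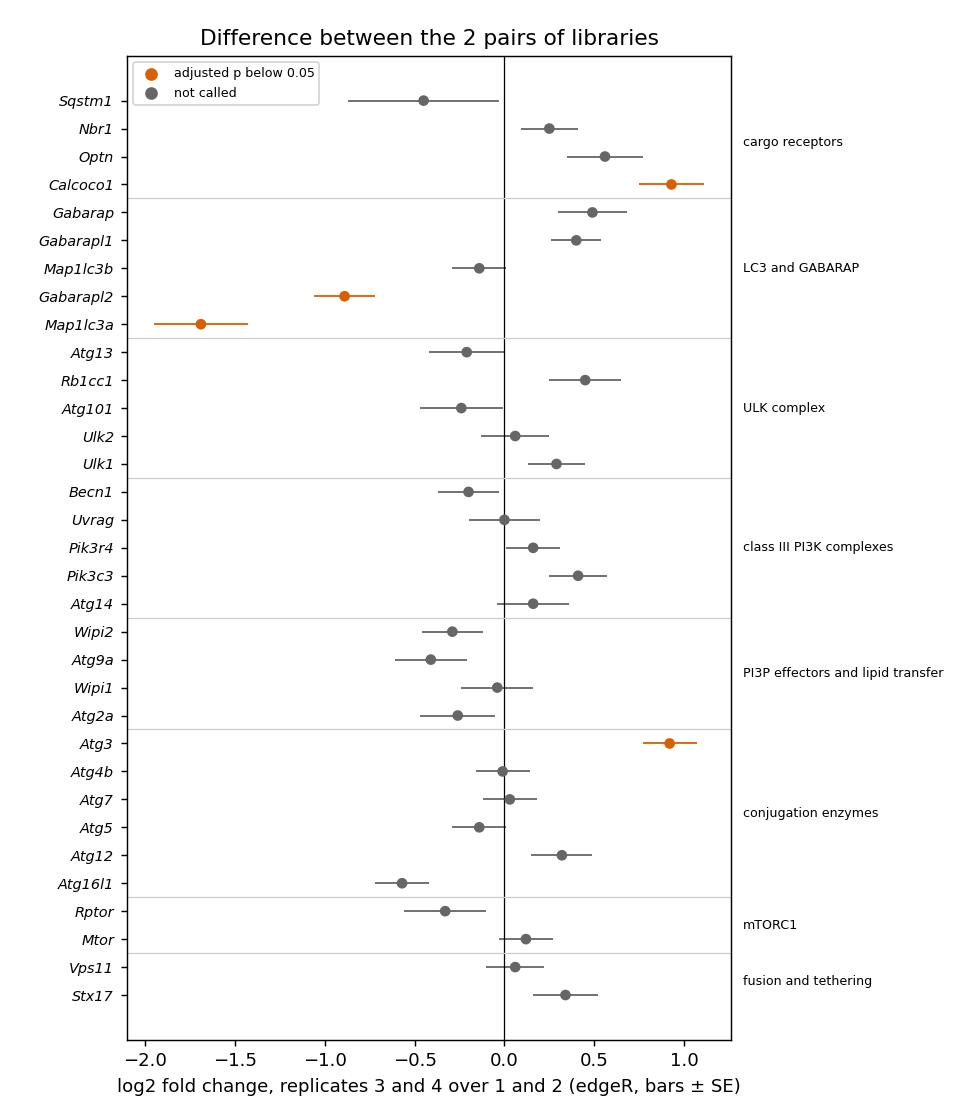
log2 fold change of each gene's counts, replicates 3 and 4 over replicates 1 and 2, with bars of 1 SE from edgeR, in the same order as the level plot. Orange marks the 4 genes with an adjusted p below 0.05: Calcoco1 and Atg3 lie right of 0, Gabarapl2 and Map1lc3a left of it.

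Cargo receptors were dominated by Sqstm1, and Calcoco1 was the 1 of 4 that was called. Sqstm1, which encodes p62, the receptor that binds ubiquitin chains and LC3, had 659 and 1060 TPM in replicates 3 and 4, against 474 and 1280 TPM in replicates 1 and 2. It was high in replicates 4 and 2 and low in replicates 3 and 1, so that the pairs overlapped, and its counts had a log2 fold change of -0.45 ± 0.42 (SE, as for every fold change below; adjusted p = 0.535 by edgeR). Of all genes tested, 22.9% had a larger SD of log2 CPM than Sqstm1. Without replicate 2 its fold change was 0.25.

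Calcoco1 (chr15:102706777-102722178, mm10), a relative of NDP52 described in human cells as a receptor for endoplasmic reticulum and Golgi, had 13.5 and 17.7 TPM in replicates 3 and 4, against 6.36 and 8.05 TPM in replicates 1 and 2. Both values of replicates 3 and 4 exceeded both others, with a log2 fold change of 0.93 ± 0.18 (adjusted p = 0.0440 by edgeR). Optn, encoding optineurin, a receptor for damaged mitochondria and bacteria, had 38.8 and 41.6 TPM in replicates 3 and 4, against 19.4 and 32.4 TPM in replicates 1 and 2. Replicate 1 was the lowest library for Optn, and its log2 fold change was 0.56 ± 0.21 (adjusted p = 0.148 by edgeR). Nbr1, a ubiquitin receptor that acts beside p62, had 44.9 and 51.7 TPM in replicates 3 and 4, against 36.4 and 49.2 TPM in replicates 1 and 2, which overlap.

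Relative to Nbr1, Sqstm1 was higher in all 4 libraries, by a mean log2 TPM ratio of 4.13 ± 0.46 (SD, n = 4). Optn and Calcoco1 were lower than Nbr1 in all 4, by ratios of -0.49 ± 0.30 and -1.99 ± 0.49. Altogether 16 pairs within families or complexes were compared, each as log2((TPM + 1)/(TPM + 1)) in every library, and 14 had the same sign in all 4. The exact sign-flip permutation test, two-sided, cannot reach p = 0.05 with 4 libraries. The 14 pairs had the smallest p that it allows, 0.143 after adjustment over the 16 pairs.

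**Figure D3:**
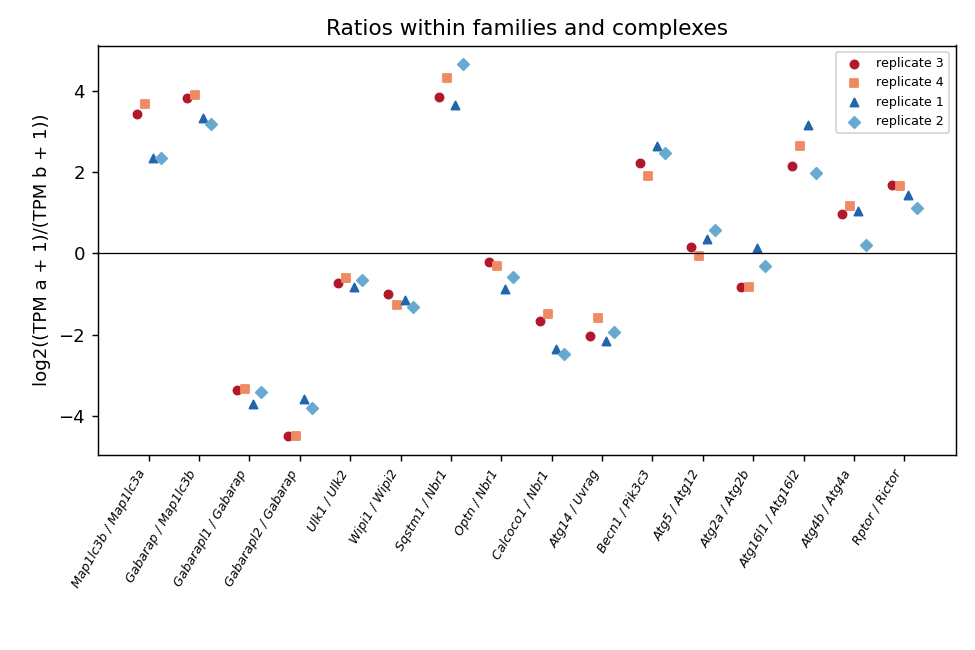
log2 ratio of (TPM + 1) between the genes of each of 16 pairs, 1 point per library, in the order replicate 3, 4, 1 and 2. The points of 14 pairs lie on the same side of 0, and those of Atg5 / Atg12 and Atg2a / Atg2b on both sides.

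Among the LC3 and GABARAP genes, the ubiquitin-like proteins that coat the autophagosome, Gabarap was far the most abundant, and 2 of the 5 were called, both lower in replicates 3 and 4. Gabarap had 842 and 914 TPM in replicates 3 and 4, against 676 and 747 TPM in replicates 1 and 2, and stood above Map1lc3b by a log2 ratio of 3.57 ± 0.36 (SD, n = 4). The levels of the pairs of libraries did not overlap, and the fold change of 0.49 ± 0.19 missed the threshold (adjusted p = 0.173 by edgeR). Gabarapl1 had 80.5 and 89.2 TPM in replicates 3 and 4, against 51.3 and 68.7 TPM in replicates 1 and 2, also without overlap, with a log2 fold change of 0.40 ± 0.14 (adjusted p = 0.143 by edgeR).

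Map1lc3b, which encodes the form usually blotted as LC3, had 58.4 and 59.6 TPM in replicates 3 and 4, against 66.3 and 80.8 TPM in replicates 1 and 2. Its TPM did not overlap between the pairs, while its counts had a log2 fold change of -0.14 ± 0.15 (adjusted p = 0.590 by edgeR). Map1lc3a (chr2:155276297-155278073), its paralogue, had 4.49 and 3.74 TPM in replicates 3 and 4, against 12.2 and 14.9 TPM in replicates 1 and 2. The pairs did not overlap, and the log2 fold change of -1.69 ± 0.26 was the largest of the 33 (adjusted p = 0.0338 by edgeR). Its counts were also the smallest of the set, 123 and 115 in replicates 3 and 4, against 163 and 211 in replicates 1 and 2.

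The fold change of Map1lc3a moved more than 1.5 times with the processing: it was -0.93 with GC and length offsets (adjusted p = 0.0862; 3.31e-05 to 0.0862 over the 8 alternatives that kept all libraries). Map1lc3b exceeded Map1lc3a in every library, by a log2 ratio of 3.44 and 3.68 in replicates 3 and 4, and of 2.35 and 2.36 in replicates 1 and 2.

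Gabarapl2 (chr8:111940703-111953612), which encodes GATE-16, had 36.0 and 39.3 TPM in replicates 3 and 4, against 55.5 and 52.3 TPM in replicates 1 and 2. All its values in replicates 3 and 4 were below the others, with a log2 fold change of -0.89 ± 0.17 (adjusted p = 0.0443 by edgeR). Part of its TPM lay in a transcript of 749 nt that is annotated as a retained intron, Gabarapl2-203. This transcript held 54.4% and 54.6% of the gene's TPM in replicates 3 and 4, against 28.7% and 22.7% in replicates 1 and 2. The coding transcript alone therefore had 16.4 and 17.8 TPM in replicates 3 and 4, against 39.6 and 40.5 TPM in replicates 1 and 2, a wider gap than that of the whole gene. In counts Gabarapl2-203 held 29.2% in both replicates 3 and 4, against 12.3% and 9.21% in replicates 1 and 2. In the kallisto layout the retained-intron share of TPM was closer between the pairs, 60.1% and 62.5% in replicates 3 and 4, against 52.7% and 44.7% in replicates 1 and 2. The coding TPM there was 14.9 and 15.6 in replicates 3 and 4, against 23.3 and 25.5 in replicates 1 and 2.

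The ULK complex, which receives the mTORC1 signal and starts autophagosome formation, was expressed at means of 7.44 to 19.7 TPM, and 0 of its 5 genes were called by edgeR or DESeq2 (unadjusted edgeR p-values from 0.0622 to 0.744). The kinase genes had a fixed order. Ulk2 had 13.1 and 12.8 TPM in replicates 3 and 4, against 13.3 and 11.9 TPM in replicates 1 and 2, which overlap. Ulk1 had 7.46 and 8.06 TPM in replicates 3 and 4, against 7.07 and 7.16 TPM in replicates 1 and 2, which do not. Ulk1 was below Ulk2 in all 4 libraries, by a log2 ratio of -0.71 ± 0.10 (SD, n = 4).

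Rb1cc1, encoding FIP200, the scaffold of the complex, had the largest fold change of the 5, 0.45 ± 0.20 (adjusted p = 0.205 by edgeR). It had 23.6 and 22.8 TPM in replicates 3 and 4, against 9.61 and 20.6 TPM in replicates 1 and 2, with replicate 1 far below the other 3. Its transcripts also differed: Rb1cc1-214, annotated as a target of nonsense-mediated decay, held 54.6% and 52.2% of its TPM in replicates 3 and 4, against 11.4% and 27.1% in replicates 1 and 2. Protein-coding transcripts of Rb1cc1 overlapped between the pairs, with 9.21 and 10.5 TPM in replicates 3 and 4, against 7.06 and 11.2 TPM in replicates 1 and 2. On counts of those transcripts its log2 fold change was 0.15 ± 0.18 (adjusted p = 0.633 by edgeR). Atg13, the adaptor phosphorylated by mTORC1, averaged 19.7 ± 4.9 TPM, and Atg101, its stabilising partner, 13.8 ± 1.53 TPM. Both overlapped between the pairs of libraries in normalised CPM, while the TPM of Atg101 did not overlap.

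The class III PI3-kinase genes showed small differences, and 0 of 5 were called by edgeR or DESeq2; Pik3c3 alone had an unadjusted edgeR p below 0.05, at 0.0428. Becn1, encoding beclin 1, the regulatory core of the complexes, led with 82.5 and 76.9 TPM in replicates 3 and 4, against 86.5 TPM in both replicates 1 and 2, without overlap in TPM. Its normalised CPM did overlap, at 79.4 and 67.9 in replicates 3 and 4, against 91.0 and 78.6 in replicates 1 and 2. Pik3c3, encoding the catalytic subunit VPS34, had 16.6 and 19.6 TPM in replicates 3 and 4, against 12.8 and 14.8 TPM in replicates 1 and 2. It had the largest fold change of the group, 0.41 ± 0.16 (adjusted p = 0.167 by edgeR), without overlap. Pik3r4, encoding the scaffold VPS15, had 17.5 and 20.3 TPM in replicates 3 and 4, against 11.9 and 16.2 TPM in replicates 1 and 2, also without overlap, and a fold change of 0.16 ± 0.15.

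Subunits that define the separate complexes differed in level. Uvrag, the subunit of the endosomal complex, had 38.7 and 36.4 TPM in replicates 3 and 4, against 40.6 and 37.6 TPM in replicates 1 and 2. Atg14, which directs the kinase to the forming autophagosome, had 8.74 and 11.4 TPM in replicates 3 and 4, against 8.23 and 9.07 TPM in replicates 1 and 2. Both overlapped between the pairs. Atg14 was below Uvrag in all 4 libraries, by a log2 ratio of -1.93 ± 0.25 (SD, n = 4), counting all annotated transcripts. Becn1 exceeded Pik3c3 by 2.32 ± 0.32, counting all annotated transcripts of both genes.

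The PI3P effectors and lipid transfer genes were the lowest group, with a median of 8.50 TPM. All 4 had negative fold changes, although that of Wipi1, -0.04 ± 0.20, turned positive without the count filter and without replicate 2 or 3, and 0 were called by edgeR or DESeq2 (unadjusted edgeR p-values from 0.0929 to 0.867). Wipi2, the PI3P-binding protein that recruits ATG16L1, had 12.7 and 16.5 TPM in replicates 3 and 4, against 12.8 and 18.9 TPM in replicates 1 and 2. Its paralogue Wipi1 was lower in every library, by a log2 ratio of -1.18 ± 0.14, with 5.87 and 6.18 TPM in replicates 3 and 4, against 5.27 and 7.04 TPM in replicates 1 and 2. Neither gene separated the pairs of libraries in TPM.

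Atg9a, a lipid scramblase carried on vesicles to the growing membrane, had 8.29 and 9.73 TPM in replicates 3 and 4, against 9.27 and 16.3 TPM in replicates 1 and 2. Replicate 2 was its highest library, and its fold change of -0.41 ± 0.20 was the largest of the group (adjusted p = 0.256 by edgeR). Atg2a, which transfers lipids at the contact with the endoplasmic reticulum, had 4.59 and 5.54 TPM in replicates 3 and 4, against 5.44 and 7.61 TPM in replicates 1 and 2. It was below its paralogue Atg2b in 3 of 4 libraries (log2 ratio -0.46 ± 0.46, exact permutation p = 0.25).

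Of the 6 conjugation enzymes edgeR called Atg3 alone, and DESeq2 called Atg3 and Atg16l1. Atg3 (chr16:45158785-45188538), the E2 enzyme that passes LC3 to phosphatidylethanolamine and the gene with 2 CACGTG matches above, had 108 and 104 TPM in replicates 3 and 4. It had 53.1 and 60.2 TPM in replicates 1 and 2. The pairs were far from overlapping, with a log2 fold change of 0.92 ± 0.15 (adjusted p = 0.0366 by edgeR). The other CACGTG promoters found above belong to genes that were not called. Atg5, Atg7 and Atg14 had log2 fold changes of -0.14, 0.03 and 0.16. Any link between the motif and these fold changes was not tested.

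Atg7, the E1 enzyme of both conjugation branches, had 42.6 and 53.9 TPM in replicates 3 and 4, against 26.8 and 34.7 TPM in replicates 1 and 2. Atg4b, the main protease that cuts LC3 precursors, had 61.7 and 68.4 TPM in replicates 3 and 4, against 35.8 and 30.9 TPM in replicates 1 and 2. For both genes TPM did not overlap, but the counts were level, with log2 fold changes of 0.03 ± 0.15 for Atg7 and -0.01 ± 0.15 for Atg4b. The short transcript Atg4b-209, of 420 nt, held 54.0% and 58.4% of the gene's TPM but 10.8% and 11.5% of its counts in replicates 3 and 4. In replicates 1 and 2 it held 26.4% and 9.01% of the TPM and 3.15% and 0.811% of the counts. Atg7-204, of 758 nt, likewise held 28.9% and 35.7% of the TPM of Atg7 in replicates 3 and 4, against 3.29% and 6.26% in replicates 1 and 2.

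Atg16l1, which anchors the ATG12-ATG5 conjugate to the membrane, had 13.6 and 14.3 TPM in replicates 3 and 4, against 17.6 and 21.9 TPM in replicates 1 and 2. The values did not overlap, and the fold change of -0.57 ± 0.15 missed the threshold with edgeR (adjusted p = 0.0768) and passed it with DESeq2 (adjusted p = 0.0479). Atg5, the conjugate's acceptor, had 31.6 and 33.5 TPM in replicates 3 and 4, against 31.3 and 42.1 TPM in replicates 1 and 2. Atg12, its ubiquitin-like modifier, had 28.4 and 35.3 TPM in replicates 3 and 4, against 24.3 and 27.6 TPM in replicates 1 and 2. Those genes stood at similar levels, with Atg5 higher in 3 of 4 libraries (log2 ratio 0.26 ± 0.28, exact permutation p = 0.25). Atg16l1 exceeded Atg16l2, its paralogue, by 2.49 ± 0.53, and Atg4b exceeded Atg4a, another LC3 protease, by 0.85 ± 0.43, both in all 4 libraries and counting all annotated transcripts. The long coding transcript Atg4b-201 alone had 8.84 and 9.36 TPM in replicates 3 and 4, against 11.1 and 12.0 TPM in replicates 1 and 2. Atg4a had 31.1 and 29.8 TPM in replicates 3 and 4, against 16.8 and 26.4 TPM in replicates 1 and 2. In expected counts Atg4b was below Atg4a in replicate 3 (1805 against 1977) and above it in replicates 4, 1 and 2.

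The mTORC1 genes were close in level. Mtor, the kinase, had 10.2 and 13.7 TPM in replicates 3 and 4, against 8.82 and 11.9 TPM in replicates 1 and 2. Rptor, encoding raptor, the subunit that recruits substrates, had 12.2 and 15.3 TPM in replicates 3 and 4, against 17.8 and 14.3 TPM in replicates 1 and 2. Both genes overlapped between the pairs of libraries in TPM. In normalised CPM Rptor overlapped and Mtor did not, at 53.5 and 58.6 in replicates 3 and 4, against 50.6 and 52.6 in replicates 1 and 2. The log2 fold change of Rptor was -0.33 ± 0.23 (adjusted p = 0.393 by edgeR). In the RSEM layout most of its TPM was in transcripts not annotated as protein coding, and with protein-coding transcripts alone it had 1.99 and 1.38 TPM in replicates 3 and 4, against 5.83 and 4.39 TPM in replicates 1 and 2. On those counts the log2 fold change was -1.57 ± 0.30 (edgeR adjusted p = 0.0473, in a range of 0.0473 to 0.506 over the 8 alternatives that kept all libraries). The kallisto layout put most of its TPM in coding transcripts in replicates 1 and 2, with a coding level of 4.29 and 3.83 TPM in replicates 3 and 4, against 10.6 and 7.36 TPM in replicates 1 and 2.

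Of the fusion and tethering genes, Stx17, encoding the SNARE syntaxin 17 of the finished autophagosome, had 8.25 and 8.82 TPM in replicates 3 and 4, against 10.1 and 8.17 TPM in replicates 1 and 2. Its counts had a log2 fold change of 0.34 ± 0.18 (adjusted p = 0.286 by edgeR), so that TPM and counts did not lean the same way. Vps11, a core subunit of the HOPS tether that brings the lysosome to it, had 36.1 and 34.7 TPM in replicates 3 and 4, against 28.4 and 42.2 TPM in replicates 1 and 2. Its fold change was 0.06 ± 0.16. Both overlapped between the pairs of libraries in TPM.

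Which transcript carries a member's RNA bears on what its level counts, and the shares that follow are from the RSEM layout unless the other is named. For 12 of the 33 genes less than 5% of TPM lay in transcripts not annotated as protein coding in every library, and Atg101, Stx17 and Wipi1 had 0% throughout. At the other end, Becn1 and Rptor had more than 50% there in all 4 libraries, as had 3.80% of 9797 protein-coding genes with at least 1 TPM in every library. Over members the median of the mean share was 7.09%, beside 3.70% over those genes.

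For Becn1 the share was 86.9% and 84.9% in replicates 3 and 4, against 86.0% and 85.4% in replicates 1 and 2. On average the largest piece was Becn1-201, annotated as a target of nonsense-mediated decay, with 34.9% and 31.3% in replicates 3 and 4, against 34.8% and 31.3% in replicates 1 and 2. The next, and the largest in replicate 4, was Becn1-211, a retained-intron transcript of 487 nt, with 28.1% and 35.5% in replicates 3 and 4, against 27.5% and 22.8% in replicates 1 and 2. Protein-coding transcripts of Becn1 thus summed to 10.8 and 11.7 TPM in replicates 3 and 4, against 12.1 and 12.6 TPM in replicates 1 and 2. Those of Pik3c3 were higher in every library, with 16.6 and 19.6 TPM in replicates 3 and 4, against 12.5 and 14.7 TPM in replicates 1 and 2. In the kallisto layout Pik3c3 was higher on coding transcripts in 3 of the 4 libraries, and in replicate 1 Becn1 had 9.60 TPM and Pik3c3 9.12 TPM. For Rptor the share was 83.6% and 91.0% in replicates 3 and 4, against 67.2% and 69.3% in replicates 1 and 2. In the kallisto layout it was 64.4% and 75.3% in replicates 3 and 4, against 16.0% and 28.6% in replicates 1 and 2, so Rptor did not exceed 50% in all libraries there. The 2 members that did were Becn1 and Uvrag. For Uvrag that share was 64.8% and 66.0% in replicates 3 and 4, against 74.7% and 74.9% in replicates 1 and 2.

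The share in such transcripts was higher in replicates 3 and 4 without overlap for 11 members and lower for 5, beside 20.7% and 18.5% of the 9797 genes; whether these shares differ was not tested. In the kallisto layout the same counts were 8 and 6 members. Sqstm1 had the plainest contrast: 33.3% and 38.9% in replicates 3 and 4, against 1.60% and 2.59% in replicates 1 and 2. A retained-intron transcript of 582 nt, Sqstm1-203, held 27.6% and 36.6% of its TPM in replicates 3 and 4, against 0.649% and 1.45% in replicates 1 and 2. In counts the same transcript held 6.86% and 9.56% in replicates 3 and 4, against 0.122% and 0.266% in replicates 1 and 2. The protein-coding transcripts of Sqstm1 had 440 and 648 TPM in replicates 3 and 4, against 467 and 1240 TPM in replicates 1 and 2, so that replicate 2 stood above the other 3 libraries.

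**Figure D4:**
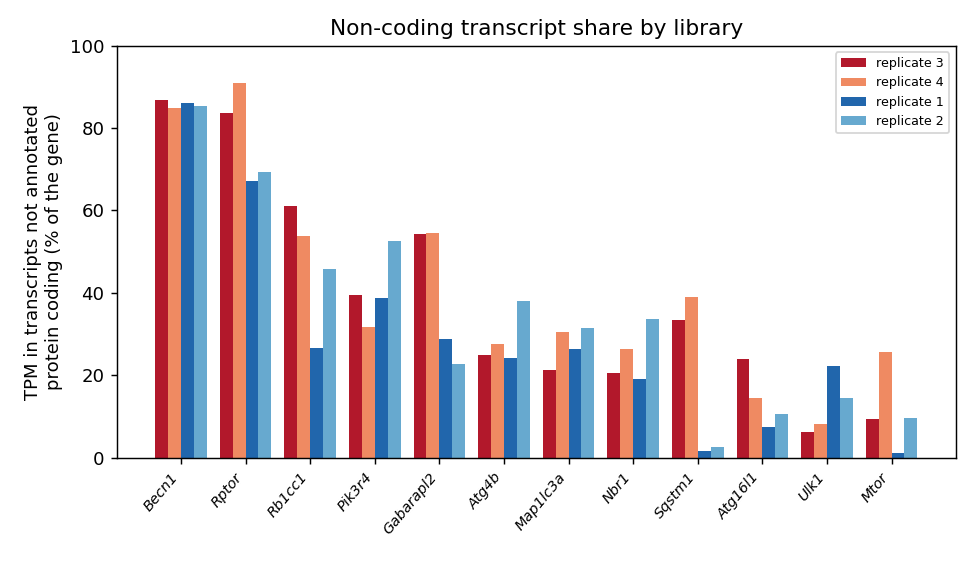
Share of each gene's TPM (%) in transcripts not annotated as protein coding, for the 12 members that reach 20% in at least 1 library, with 1 bar per library in the order replicate 3, 4, 1 and 2. Becn1 is high in all 4 libraries, while Sqstm1 stands at 33.3% and 38.9% in replicates 3 and 4, against 1.60% and 2.59% in replicates 1 and 2.

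The quantifications in the RSEM and kallisto layouts gave like gene levels. For 0 of 33 members did they differ at least 2-fold the same way in all 4 libraries, beside 6.09% of 11114 genes. The ratio of mean kallisto-layout to mean RSEM-layout TPM ran from 0.677 for Pik3r4 to 1.38 for Uvrag. They divided genes differently among transcripts: the mean share of the main transcript moved by more than the SD between libraries for 16 of the 33 members. For Uvrag the coding transcript Uvrag-201 held 98.2% and 98.6% in replicates 3 and 4, against 95.8% and 90.5% in replicates 1 and 2, in the RSEM layout. In the kallisto layout it held 35.2% and 34.0% in replicates 3 and 4, against 25.3% and 25.1% in replicates 1 and 2. The coding TPM of Uvrag there was 19.6 and 18.5 in replicates 3 and 4, against 13.6 and 11.9 in replicates 1 and 2. Sqstm1-203 held 28.4% and 34.3% in replicates 3 and 4, against 3.21% and 6.02% in replicates 1 and 2, in the kallisto layout, a smaller contrast than in the RSEM layout in the same direction.

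Whether counting used the strand of the reads is not given in the sources used here, and 10 members share exonic bases with a gene on the other strand. The widest overlap was that of Becn1 with Cntd1, 43.9% of its exonic bases, and Cntd1 had 0.05 and 0 TPM in replicates 3 and 4, against 0.03 and 0.06 TPM in replicates 1 and 2. Sqstm1 shares 17.3% of its exonic bases with Mrnip, which had 1.79 and 1.66 TPM in replicates 3 and 4, against 0.61 and 0.88 TPM in replicates 1 and 2. The transcript Sqstm1-203 shares 0 bases with exons of the other strand.

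Other genes of the pathway, taken from 4 lists by function, gave 4 edgeR calls among 81 genes tested, 4.94%, close to the 5.50% of all genes, and DESeq2 called 9. Of 16 further core autophagy genes edgeR called 0 higher and 1 lower: Atg4d, another LC3 protease, had 4.31 and 4.05 TPM in replicates 3 and 4, against 11.2 and 15.0 TPM in replicates 1 and 2 (log2 fold change -1.20 ± 0.19, edgeR adjusted p = 0.0343). The most abundant were Vmp1, a scramblase of the endoplasmic reticulum, at 201 ± 96.0 TPM, and Wdr45b, a WIPI relative, at 45.5 ± 14.3 TPM. The medians of the 4 lists' log2 fold changes lay between -0.10 and 0.05.

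Of 12 further cargo receptors 11 were tested, and 0 were called by edgeR or DESeq2, with 0 at an unadjusted edgeR p below 0.05. Ncoa4, the receptor that delivers ferritin to autophagosomes, had 240 and 333 TPM in replicates 3 and 4, against 94.8 and 297 TPM in replicates 1 and 2. Tax1bp1, a ubiquitin receptor, had 167 and 119 TPM in replicates 3 and 4, against 108 and 161 TPM in replicates 1 and 2. Both genes overlapped between the pairs of libraries. Calcoco2, the mouse gene named after NDP52, had 0 counts in all 4 libraries, where 0 allows up to 0.0614 and 0.0525 CPM in replicates 3 and 4, and 0.117 and 0.110 CPM in replicates 1 and 2, for counting error only.

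Of 34 genes of mTORC1 and nutrient sensing edgeR called 1 higher and 2 lower, and DESeq2 called these and Rheb, the GTPase that activates mTORC1. Deptor, an inhibitor bound to mTOR, had 1.78 and 1.95 TPM in replicates 3 and 4, against 0.49 and 0.82 TPM in replicates 1 and 2 (log2 fold change 1.55 ± 0.25, edgeR adjusted p = 0.0352). Lamtor4, a subunit of the Ragulator that holds mTORC1 on the lysosome, had 20.9 and 21.1 TPM in replicates 3 and 4, against 50.5 and 46.7 TPM in replicates 1 and 2 (-1.21 ± 0.20, edgeR adjusted p = 0.0366). Rictor, the subunit that defines mTORC2, had 3.10 and 4.16 TPM in replicates 3 and 4, against 5.92 and 6.04 TPM in replicates 1 and 2 (-0.90 ± 0.18, edgeR adjusted p = 0.0484). Rptor exceeded Rictor in all 4 libraries, by a log2 TPM ratio of 1.47 ± 0.26, counting all annotated transcripts. On protein-coding transcripts of both genes in the RSEM layout, Rptor lay below Rictor in 3 of the 4 libraries. The Ragulator genes Lamtor1 and Lamtor5 led this list at 241 ± 25.2 and 156 ± 34.9 TPM.

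Of 20 fusion, tethering and lysosome genes 0 were called by edgeR, 6 had an unadjusted p below 0.05, and DESeq2 called 4 (Lamp1, Rab7, Snap29 and Vps41). Lamp1 and Lamp2, the main glycoproteins of the lysosomal membrane, led the list, with 2540 and 3410 TPM for Lamp1 in replicates 3 and 4, against 1600 and 1940 TPM in replicates 1 and 2. Lamp2 had 632 and 847 TPM in replicates 3 and 4, against 604 and 652 TPM in replicates 1 and 2. Lamp1 did not overlap between the pairs of libraries, with a log2 fold change of 0.76 ± 0.26 (adjusted p = 0.134 by edgeR), and Lamp2 did overlap.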

How the data were processed

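For each of 4 polyA RNA-seq libraries the deposited files were gene and transcript tables in the RSEM column layout (expected counts, TPM) and a transcript table in the kallisto layout (estimated counts, TPM). Per the deposited notes they were made on mm10 with GENCODE M21. Aligner and quantifier: not given in the sources used here. The deposited expected counts carry no normalization, and the authors' TPM values are scaled within each library. Of 81881 gene rows, 26345 without a gene annotation (spike-ins and tRNAs) were left out.

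Expected counts were rounded and fitted in edgeR 4.0.16 (R 4.3.3; filterByExpr with a minimum count of 10, TMM, quasi-likelihood test, Benjamini-Hochberg over 13264 genes, threshold 0.05); all 33 members passed the filter. DESeq2 1.42.0 was the alternative tool. On simulated counts of 13055 genes the edgeR comparison recovered 58% of log2 changes of 1 and 97% of log2 changes of 2, with 5 false calls. Changes were placed only in genes with a mean above 5 CPM, and the counts had no gene-specific spread beyond the trend. Map1lc3a, with a mean of 4.69 CPM, lies outside that range. Intervals and limits at 0 counts (3 counts) cover counting error only. Other tables used Python 3.11.15, pandas 2.3.3, scipy 1.17.1 and biopython 1.88.

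The members, lists and pairs were chosen with earlier results of these data known. All members are given by level. Fold changes are named for called members, the largest in each role group and some pair members, and the figure of fold changes shows all members. Listed genes are named if called or among the 2 most abundant of a list. Atg7, Pik3r4, Vps11, the genes on the other strand, genes called by DESeq2 alone and the transcripts described were named after their values were known. Alternatives used another normalization, filter, tool, quantification, pseudocount and scaling, GC and length offsets, and leaving out each library. Counting protein-coding transcripts only, and the non-coding shares of the kallisto layout, were added after seeing the data. The coding end of 1 further member is not reported here.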

Additional observations from a re-analysis of the deposited data

How the results depend on the processing

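No paired analysis was possible because the series has 1 group. edgeR called 729 genes in the comparison of replicates 3 and 4 with replicates 1 and 2. DESeq2 called 1910 (817 higher, 1093 lower), edgeR without a filter on low counts 2569 (1213 higher, 1356 lower), and edgeR with GC and length offsets 378 (194 higher, 184 lower). Leaving out a library, which assumes that a lone library varies like the others, gave 51 to 640 genes, with 14 to 160 higher and 37 to 480 lower; the lowest counts came without replicate 4. Members called numbered 1 with the offsets and 0 to 2 with a library left out. Under the offsets Map1lc3a (-0.93, adjusted p = 0.0862), Gabarapl2 (-0.91, 0.0560) and Atg3 (0.85, 0.0513) missed the edgeR threshold. Calls were gained by Atg16l1 with DESeq2 (-0.56, adjusted p = 0.0479) and, with edgeR, by Optn without the filter (0.61, adjusted p = 0.0272). Rptor gained an edgeR call on counts of protein-coding transcripts only (-1.57, adjusted p = 0.0473). The cause was not tested. Small fold changes turned sign: Uvrag to 0.00 with DESeq2 or its size factors, 0.04 without the filter and 0.05 on coding transcripts; Wipi1 to 0.01 and Atg4b to 0.03 without the filter; Atg101 to 0.14 with the offsets. With a library left out, fold changes spanned -0.46 to 0.03 for Atg101, -0.22 to 0.26 for Uvrag, -0.08 to 0.07 for Atg4b, -0.59 to 0.01 for Rptor, -0.03 to 0.19 for Vps11, -0.89 to 0.25 for Sqstm1, -0.13 to 0.31 for Ulk2, -0.10 to 0.05 for Wipi1, -0.05 to 0.36 for Atg14 and -0.04 to 0.12 for Atg7. The median of the members' mean TPM was 14.6 on protein-coding transcripts, beside 19.1. The 16 pairs kept the sign of their mean ratio with pseudocount 0.1, kallisto-layout TPM and each library left out. Ratios on protein-coding transcripts were not among these settings. There, in the RSEM layout, Becn1 lay below Pik3c3 in every library and Rptor below Rictor in 3 of the 4. Counts were smallest for Map1lc3a (115 to 211), and the SE of the fold change was largest for Sqstm1 (0.42).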
